A study of Mus musculus with 2 samples.

Results

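Prostaglandin synthesis and sensing were followed through 9 of the 14886 protein-coding genes counted by ribosome profiling in mouse lung fibroblasts. The members were picked by gene symbol, with earlier results of these counts known: the cyclooxygenases Ptgs1 and Ptgs2, the prostaglandin synthases Ptges, Ptges2, Ptges3 and Ptgis, and the receptors Ptger2, Ptger4 and Ptgfr. Ribosome profiling counts the mRNA stretches that ribosomes protect from nuclease, so a count combines the amount of an mRNA with its ribosome load. One library was labelled IR and the other NC, in a series whose title concerns lung fibrosis after radiation and rosmarinic acid. The labels spell out neither abbreviation and give no dose, time, strain, age or passage, nor do they say whether the cells were primary or a line. With 1 library in each group and no replicates, the values below compare these libraries and carry no test. Each interval is a 95% interval that covers counting error only. The labels mention no molecular identifiers, and PCR copies counted as separate reads would make the true error larger.

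Prostaglandins are made when phospholipase A2 frees arachidonate from membranes and a cyclooxygenase turns it into the unstable prostaglandin H2. Terminal synthases then convert that intermediate to prostaglandin E2, prostacyclin or other products, which act on receptors of the same or nearby cells. In lung fibroblasts prostaglandin E2, acting through the receptors EP2 and EP4, is known as a brake on proliferation, collagen production and the transition to myofibroblasts.

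The promoters of Ptgs1, Ptgs2 and Ptges3, the members with a mean of at least 100 counts, are printed because these genes carry the best-measured differences. Each is the RefSeq window of 300 bases (GRCm38.p6) that runs from 250 bases before to 50 bases after the annotated start, 5′ to 3′ on the plus strand. Ptgs1 lies at chr2:36230176-36230475, Ptgs2 at chr1:150099781-150100080 and Ptges3 at chr10:128058732-128059031. Capitals mark matches on either strand to 5 motifs: the E-box CACGTG, the C/EBP palindrome TTGCGCAA, the cAMP response element core TGACGT, the GC box GGGCGG and the TATA motif TATAAA.
Ptgs1: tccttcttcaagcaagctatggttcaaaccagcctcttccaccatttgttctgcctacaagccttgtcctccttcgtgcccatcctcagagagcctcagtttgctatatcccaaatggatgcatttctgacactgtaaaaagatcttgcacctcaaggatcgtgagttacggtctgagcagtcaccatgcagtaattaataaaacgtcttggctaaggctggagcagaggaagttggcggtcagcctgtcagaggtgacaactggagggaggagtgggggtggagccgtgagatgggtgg
Ptgs2: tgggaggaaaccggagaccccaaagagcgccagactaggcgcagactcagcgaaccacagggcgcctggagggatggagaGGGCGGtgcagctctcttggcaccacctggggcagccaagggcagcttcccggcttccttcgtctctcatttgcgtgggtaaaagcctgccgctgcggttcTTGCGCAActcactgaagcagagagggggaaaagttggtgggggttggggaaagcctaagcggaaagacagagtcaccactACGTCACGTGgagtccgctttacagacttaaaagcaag
Ptges3: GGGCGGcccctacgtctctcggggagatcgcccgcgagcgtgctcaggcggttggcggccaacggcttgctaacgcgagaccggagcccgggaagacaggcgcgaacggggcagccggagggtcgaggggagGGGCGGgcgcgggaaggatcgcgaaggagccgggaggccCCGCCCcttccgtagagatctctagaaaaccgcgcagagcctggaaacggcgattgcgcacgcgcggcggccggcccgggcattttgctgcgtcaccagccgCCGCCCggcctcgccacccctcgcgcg
The Ptgs2 window held a GC box at bases 81 to 86, the C/EBP palindrome at bases 182 to 189, and a cAMP response element core at bases 263 to 268 that overlaps an E-box at bases 267 to 272. Of 32851 windows of this length in the RefSeq table, the C/EBP palindrome was found in 0.183%, the cAMP response element core in 7.51%, the E-box in 7.15% and the GC box in 35.7%. Ptges3 had 4 GC boxes and a G and C content of 73.7%, whereas Ptgs1 had no match to any of the 5 motifs and a G and C content of 50.7%. The TATA motif, found in 13.6% of windows, matched none of these 3. The count table starts the Ptgs2 gene 93 bases downstream of the RefSeq start, so all of the Ptgs2 window lies before the start used for counting. These matches describe letters and were not linked to any count.

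In all, 888835 counts fell in the IR library and 695446 in the NC library, and the median gene had 12 counts in each. Counts were scaled by TMM, which trims extreme genes before it compares libraries. After scaling, 3 counts corresponded to 3.79 counts per 1000000 scaled counts (CPM) in IR and 3.84 in NC. As a check of the labelled cell type, 11 of 12 fibroblast markers were in the table, all with counts in both libraries. They summed to 7638 in IR and 6165 in NC and went both ways, with Lum at 1349 and 222 but Col3a1 at 348 and 519. Pdgfra, at 38 and 66, and Fap, at 5 and 19, were also lower in IR. Markers of other cells were not equal between the libraries either. Those of mesothelium summed to 511 counts in IR against 128 in NC, mostly in Wt1. Endothelial markers summed to 6954 and 2715, of which Emcn held 6842 and 2618. The others went both ways, with Vwf at 37 and 15 but Tie1 at 21 and 53, and Cdh5 had 1 and 0. Epithelial markers summed to 88 and 29, mostly in Abca3 (73 and 27), and Epcam had 0 and 1. Smooth muscle and pericyte markers summed to 396 and 305 and went both ways, with Synpo2 at 136 and 39 but Myh11 at 0 and 24. The 2 platelet and mast cell markers in the table, Itga2b and Gp9, summed to 6 and 27. Macrophage and leukocyte markers summed to 471 and 327, nearly all in Cd74 and Cd3e, and the other 6 had 49 counts in IR against 1 in NC, with 5 of them at 0 in NC. The part of these cells in the differences below was not tested, and in such bulk libraries fewer cells of a type and less RNA per cell cannot be told apart.

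Both cyclooxygenases were higher in the IR library, Ptgs2 more so than Ptgs1. Ptgs2, the inducible enzyme switched on by cytokines, growth factors and stress, is found at 150100124 to 150108010 of chromosome 1 (mm10, plus strand). Its counts were 289 in IR and 114 in NC, or 365 (324 to 410) and 146 (120 to 175) CPM. The intervals of the libraries did not overlap, and the fold was 2.50 (2.01 to 3.14). Ptgs1, the constitutive enzyme, lies on chromosome 2 at 36230426 to 36252272. With 303 and 178 counts, Ptgs1 stood at 383 (341 to 429) CPM in IR and 228 (196 to 264) in NC, a fold of 1.68 (1.39 to 2.04). Together the cyclooxygenases had 592 and 292 counts, a fold of 2.0 (1.74 to 2.31). Neither gene overlaps another gene of the table. Total-count scaling lowered these folds to 1.98 (1.59 to 2.49) for Ptgs2 and 1.33 (1.10 to 1.61) for Ptgs1, both still above 1.

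The balance between the cyclooxygenases can be read within each library, with no scaling between libraries. Ptgs2 made up 48.8% (44.7 to 52.9, exact binomial) of the cyclooxygenase counts in IR and 39.0% (33.4 to 44.9) in NC. The ratio of Ptgs2 to Ptgs1 counts was therefore 1.49-fold higher in IR (1.11 to 2.0, conditional exact interval). Against Pla2g4a, the cytosolic phospholipase that supplies arachidonate, the contrast was larger. Pla2g4a had 103 counts in IR against 112 in NC, a fold of 0.909 (0.688 to 1.20). Relative to it, Ptgs2 was 2.76-fold higher in IR (1.92 to 3.95) and Ptgs1 1.85-fold higher (1.32 to 2.60).

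**Figure D1:**
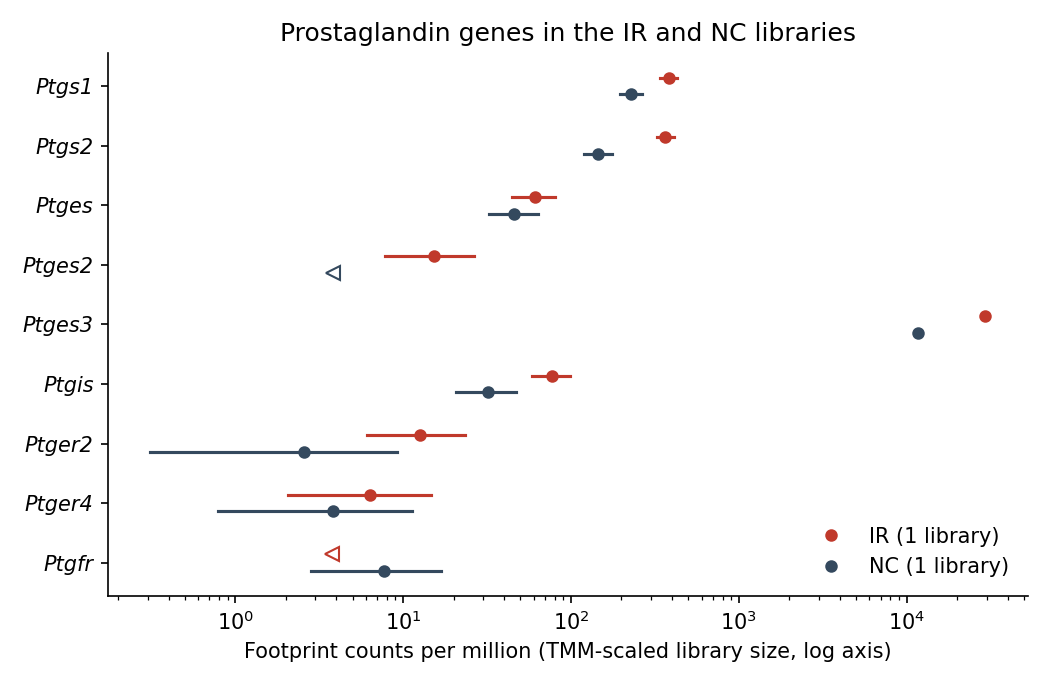
Scaled footprint counts (CPM) of the 9 prostaglandin genes on a log axis, with red for the IR library and dark blue for the NC library. Points are single libraries, lines are exact Poisson 95% intervals, and open triangles stand at the limit of 3 counts for a library with 0 counts. IR is higher than NC for every gene but Ptgfr, and the share of all genes with a higher IR level was not counted. By the interval of the fold, 6 of the 9 were higher in IR beyond counting error and 1 was lower. Of all genes with a count, 16.1% were higher and 15.8% lower by that measure.

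The 4 synthases had very different amounts of data behind them. Ptges3 encodes p23, a co-chaperone of HSP90 that has also been described as a cytosolic prostaglandin E synthase. It lies on chromosome 10 at 128058954 to 128077272 and had 23125 counts in IR against 9145 in NC, the third highest mean count of the table. That was 2.60% (2.57 to 2.64) of all IR counts and 1.31% (1.29 to 1.34) of all NC counts. The fold was 2.50 (2.44 to 2.56), which total-count scaling changed to 1.98 (1.93 to 2.03). Ptges3 held 96.9% of the members' counts in IR and 96.2% in NC, so a sum over the members is in effect its own count. Without it, the other 8 members summed to 728 and 364 counts, a fold of 1.98 (1.74 to 2.25).

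The chaperone partners of p23 differed less between the libraries. Hsp90ab1, the constitutive cytosolic HSP90, had 745 and 674 counts, with a fold of 1.09 (0.983 to 1.21), and Hsp90aa1, the inducible form, had 162 and 127, a fold of 1.26 (0.993 to 1.60). Within libraries, Ptges3 relative to Hsp90ab1 was 2.29-fold higher in IR (2.05 to 2.55). Ptges3 instead sat among the most counted genes, which were mostly higher in IR: of the 20 genes with the highest mean count, 12 were at least 2-fold higher and 2 at least 2-fold lower. Ahead of it came Actr10, with 55311 and 15961 counts, and Cacna2d2, with 24182 and 10219. Gene counts do not show where along the transcript these reads lie, or whether a gene's reads were shared with near-identical copies, since the handling of reads with several matches is not stated in the sources at hand. Whether these reads are footprints of p23 translation was not tested.

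Ptgis, prostacyclin synthase, was also higher in IR. It is a membrane enzyme of the cytochrome P450 family at 167191805 to 167240604 of chromosome 2. It had 61 counts in IR against 25 in NC, or 77.1 (59.0 to 99.1) and 32.0 (20.7 to 47.2) CPM, a fold of 2.41 (1.49 to 4.01). The intervals of the libraries did not overlap. Ptgis overlaps 2 further RefSeq genes, 1110018N20Rik and Gm52569, that are not in the count table.

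Ptges, the microsomal prostaglandin E synthase usually induced together with Ptgs2, differed less. Spanning 30889471 to 30929863 of chromosome 2, Ptges had 48 counts in IR against 36 in NC, and the fold of 1.32 (0.837 to 2.09) included 1. Total-count scaling lowered that fold to 1.04 (0.663 to 1.65). Within libraries, Ptgs2 relative to Ptges was 1.9-fold higher in IR (1.13 to 3.16). Ptgis relative to Ptges was 1.83-fold higher (0.925 to 3.64), an interval that includes 1. RefSeq places Gm13400 and Gm52550 over Ptges.

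Ptges2, the second membrane-bound prostaglandin E synthase, lies on chromosome 2 at 32395896 to 32402739 and had 12 counts in IR against 0 in NC. Its level was 15.2 (7.84 to 26.5) CPM in IR and at most 3.84 in NC by the limit of 3 counts. With the 12 IR counts taken as exact, that limit put Ptges2 at least 3.95-fold higher in IR. The exact interval of the fold, which allows for error in both counts, began lower, at 2.75.

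**Figure D2:**
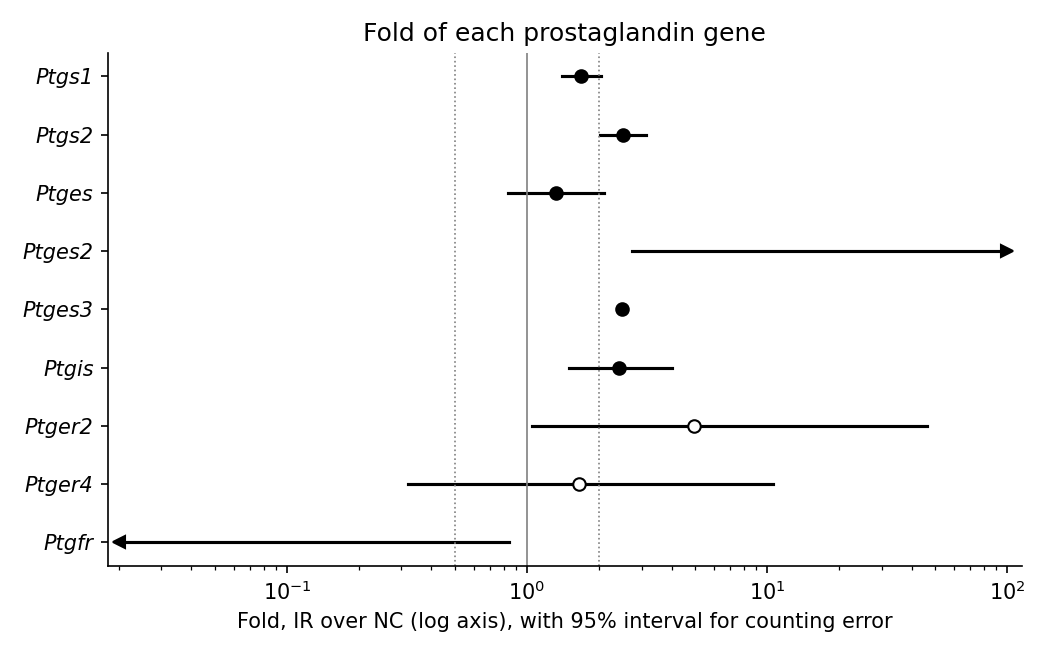
Fold of IR over NC for each of the 9 genes on a log axis, with exact 95% intervals for counting error. Filled points have a mean of at least 20 counts, open points fewer, and arrowheads mark intervals that run off because one library had 0 counts. The solid line is no difference and the dotted lines are 2-fold in either direction. Ptgs2, Ptges3 and Ptgis lie close together near 2.5-fold, and only Ptgfr lies to the left of 1.

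The receptors were near the limit of detection, and their counts pointed in different directions. Ptger2, which encodes EP2, a receptor that raises cyclic AMP, spans 44988195 to 45003820 of chromosome 14. It had 10 counts in IR against 2 in NC, a fold of 4.94 (1.05 to 46.4), and total-count scaling brought the interval to 0.834 to 36.7, which includes 1. Ptger4, encoding EP4, the other receptor among the members that raises cyclic AMP, lies on chromosome 15 at 5206661 to 5244187. It had 5 and 3 counts, with a fold of 1.65 (0.320 to 10.6). Ptger4 is the only member that overlaps another gene of the table, Ttc33 on the opposite strand, which had 10 and 47 counts. Without a known strand setting the reads of that pair cannot be told apart. Taken as a pair, Ptger2 and Ptger4 had 15 counts in IR against 5 in NC, a fold of 2.96 (1.02 to 10.4). Under total-count scaling the interval of the pair also includes 1 (0.811 to 8.26), and the sum holds the Ptger4 reads not separated from Ttc33.

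Ptgfr, the receptor for prostaglandin F2alpha that signals through Gq and calcium, went the other way. It lies on chromosome 3 at 151798918 to 151837630 and had 0 counts in IR against 6 in NC. Its level was at most 3.79 CPM in IR, by the limit of 3 counts, and 7.68 (2.82 to 16.7) in NC. With the 6 NC counts taken as exact, that limit put Ptgfr at least 2.02-fold lower in IR. The exact interval of the fold, which allows for error in both counts, reached up to 0.839. The 3 receptors together had 15 and 11 counts, a fold of 1.35 (0.578 to 3.24). Adding the prostanoid receptors outside the member list made 33 and 30 counts over 7 genes, a fold of 1.09 (0.643 to 1.84). Among those, Ptgir, the prostacyclin receptor, had 13 and 10 counts, and Ptger3 had 1 and 6. Ptger1, which overlaps another gene of the table, had 4 and 2. No difference in the total receptor count was detectable at this depth.

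Set against the table as a whole, 5 of the 9 members reached a mean of 20 counts: Ptgs1, Ptgs2, Ptges, Ptges3 and Ptgis. Of these 5, Ptgs2, Ptges3 and Ptgis had a log2 ratio of at least 1 (pseudocount 1), where 11.3% of the 5989 genes above that floor did so, and 0 had a log2 ratio of -1 or less, where the background was 11.4%. Intervals wholly above 1-fold were found for 4 of the 5, against 23.5% of genes, and wholly below for 0, against 23.7%. The median log2 ratio of the 5 was 1.24 (range 0.39 to 1.32), and that of all genes above the floor was -0.02. Among the 1332 genes averaging 100 counts or more, where Ptgs1, Ptgs2 and Ptges3 belong, 12.3% reached a log2 ratio of 1, 4.43% reached -1 and 38.2% had an interval above 1-fold, with a median log2 ratio of 0.10. Counting all 9 members, 6 were higher beyond counting error, where 16.1% of all genes with a count were, 1 was lower, against 15.8%, and 2 were neither. With total-count scaling 5 were higher, since Ptger2 no longer was. The members were listed with these counts known, so the shares describe them and support nothing further.

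The number of members past 2-fold depended on scaling. Total-count scaling moved the median log2 ratio of all genes by -0.32, and turned the split of genes at least 2-fold higher and lower from 679 and 685 into 412 and 1198. Under it 0 of the 5 members stayed at or above a log2 ratio of 1.

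**Figure D3:**
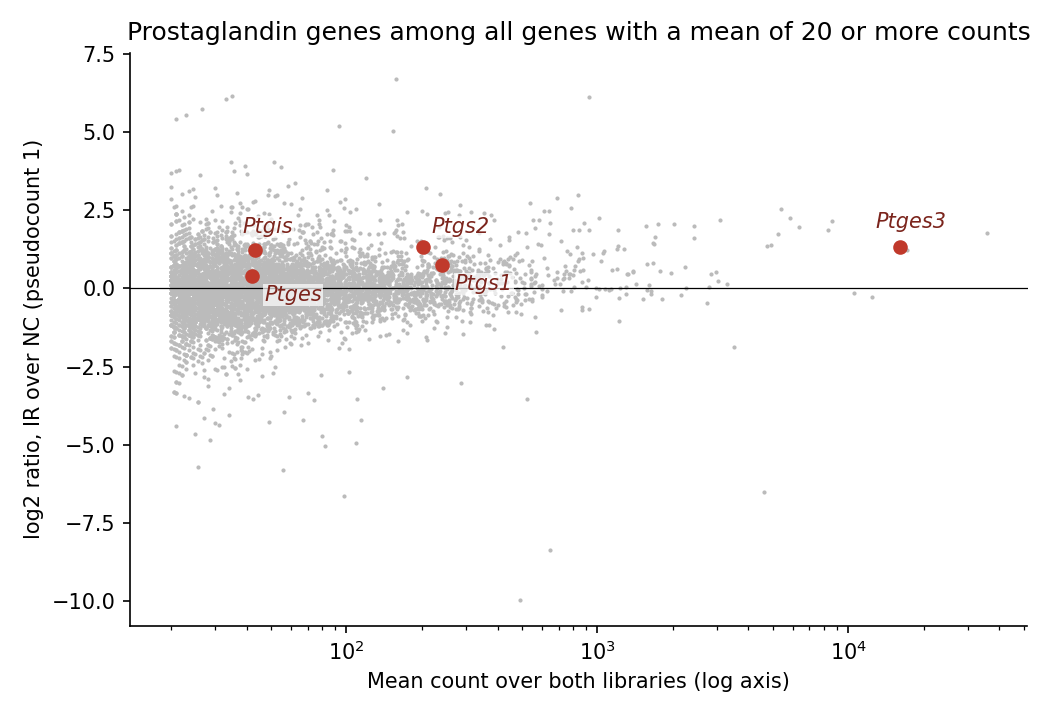
Log2 ratio of IR over NC against the mean count over both libraries (log axis) for the 5989 genes averaging 20 or more counts, in grey, with the 5 prostaglandin genes above that floor in red. All 5 lie above 0, between 0.39 and 1.32, and Ptges3 stands at the far right among the few genes of highest count.

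Genes around the pathway lay in both directions, as did genes at large. Over 8 textbook lists, 62 genes averaged 20 counts or more. Of these, 18 were higher in IR beyond counting error and 14 were lower, against 23.5% and 23.7% of all genes above the floor, and the median log2 ratio was 0.05. The counts of called genes in the single lists below are read against the same shares, and none is taken as particular to its list. Total-count scaling made these 8 higher and 28 lower. Among 12 genes of arachidonate release and recapture above the floor, 4 were higher, 3 lower and 5 neither, with a median log2 ratio of 0.10. The calcium-independent phospholipase gene Pla2g6 had 1063 counts in IR against 363 in NC, a fold of 2.89 (2.57 to 3.27). Pla2g15, a lysosomal phospholipase, had 75 and 14, a fold of 5.29 (2.97 to 10.1). On the lower side, the secreted phospholipase gene Pla2g12a had 28 and 61 counts, and Faah, which breaks down the arachidonate-containing endocannabinoid anandamide, had 5 and 39.

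Other prostanoid synthases and the genes that remove prostaglandins were sparse. Tbxas1, thromboxane synthase, overlaps Hipk2 and had 50 and 16 counts, 3.09-fold higher in IR (1.73 to 5.81). Akr1b3, an aldose reductase able to make prostaglandin F2alpha, had 34 and 47, a fold of 0.715 (0.446 to 1.13). Of the removal genes, Hpgd, the main prostaglandin-inactivating dehydrogenase, had 0 counts in IR against 1 in NC, and the uptake carrier gene Slco2a1 had 0 and 3. Abcc4, an exporter of prostaglandin E2, had 46 and 40 counts, with a fold of 1.14 (0.727 to 1.78), and the reductase gene Ptgr1 had 38 and 50, or a fold of 0.751 (0.479 to 1.17). For both genes of transport and breakdown above the floor, Abcc4 and Ptgr1, the interval included 1. Ptgfrn, a membrane protein that lowers prostaglandin F2alpha binding to its receptor, had 98 and 70 counts, a fold of 1.38 (1.01 to 1.91).

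The lipoxygenase branch competes for the same arachidonate. No lipoxygenase gene reached the floor: Alox5 had 6 counts in IR against 1 in NC, Alox12 had 0 and 3, and Alox15 had 1 and 5. The list used for this branch also holds epoxide hydrolase genes. Of the 3 genes of that list above the floor, 2 were higher beyond counting error, where 23.5% of all genes above the floor were. Mgst2, which can conjugate leukotriene A4 with glutathione, had 111 counts in IR against 26 in NC, a fold of 4.22 (2.73 to 6.74), and the epoxide hydrolase gene Ephx1 had 119 and 76, a fold of 1.55 (1.15 to 2.09). Lta4h, which makes leukotriene B4, had 42 and 47, a fold of 0.883 (0.568 to 1.37).

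Downstream of the receptors, 4 of 15 signalling genes above the floor were higher, 5 lower and 6 neither, with a median log2 ratio of -0.02. Pde4b, a phosphodiesterase that degrades cyclic AMP, had 116 and 46 counts, a fold of 2.49 (1.76 to 3.59). Plcb1, a phospholipase C activated by Gq, had 37 and 10, a fold of 3.66 (1.78 to 8.24). Creb1, the transcription factor that binds the cAMP response element, had 10 and 34 counts and was 3.44-fold lower (1.66 to 7.81). Prkar2a, a regulatory subunit of the cyclic AMP-dependent kinase, had 11 and 32 and was 2.94-fold lower (1.45 to 6.48).

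Of 15 known inducers of Ptgs2 and proteins that bind its mRNA above the floor, 4 were higher, 4 lower and 7 neither, with a median log2 ratio of -0.15. Tia1, which encodes an RNA-binding protein known to silence Ptgs2 mRNA, had 1491 counts in IR against 183 in NC, a fold of 8.05 (6.90 to 9.44). Egfr, the epidermal growth factor receptor, had 81 and 45, a fold of 1.78 (1.22 to 2.62). The immediate-early transcription factor gene Egr1 had 86 and 170 counts and was 2.0-fold lower (1.53 to 2.62), and Mapkapk2, a kinase that stabilises Ptgs2 mRNA, had 48 and 81 and was 1.71-fold lower (1.18 to 2.49). Of the cytokine receptor genes, named after their values were seen, Il1rap had 91 and 58 counts, 1.55-fold higher in IR (1.10 to 2.19). Tnfrsf1a had 141 and 91, 1.53-fold higher (1.17 to 2.01). Il1r1 had 36 and 34 counts, and its fold of 1.05 (0.636 to 1.72) included 1. The remaining lower genes of the list, also named after their values were seen, were Mapk14 and Rela. Mapk14 had 49 and 80 counts and was 1.65-fold lower (1.14 to 2.41). Rela had 78 and 111 and was 1.44-fold lower (1.07 to 1.95).

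Of 12 HSP90 and co-chaperone genes above the floor, 2 were higher, 2 lower and 8 neither, with a median log2 ratio of 0.05. Pih1d1, a co-chaperone of the R2TP complex, overlaps Aldh16a1 and had 43 and 19 counts, 2.24-fold higher in IR (1.28 to 4.06). Cdc37, which brings kinases to HSP90, had 385 and 279, a fold of 1.36 (1.17 to 1.60). Sugt1 had 29 and 67 counts and was 2.34-fold lower (1.49 to 3.75), and Chordc1 had 46 and 72 and was 1.58-fold lower (1.08 to 2.35). The log2 ratio of Ptges3 was 1.32, and those of these 12 genes ran from -1.20 to 1.12. Stub1, a ubiquitin ligase of the chaperone system that missed the floor, overlaps another gene of the table. It had 26 and 8 counts, 3.21-fold higher in IR (1.41 to 8.21).

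**Figure D4:**
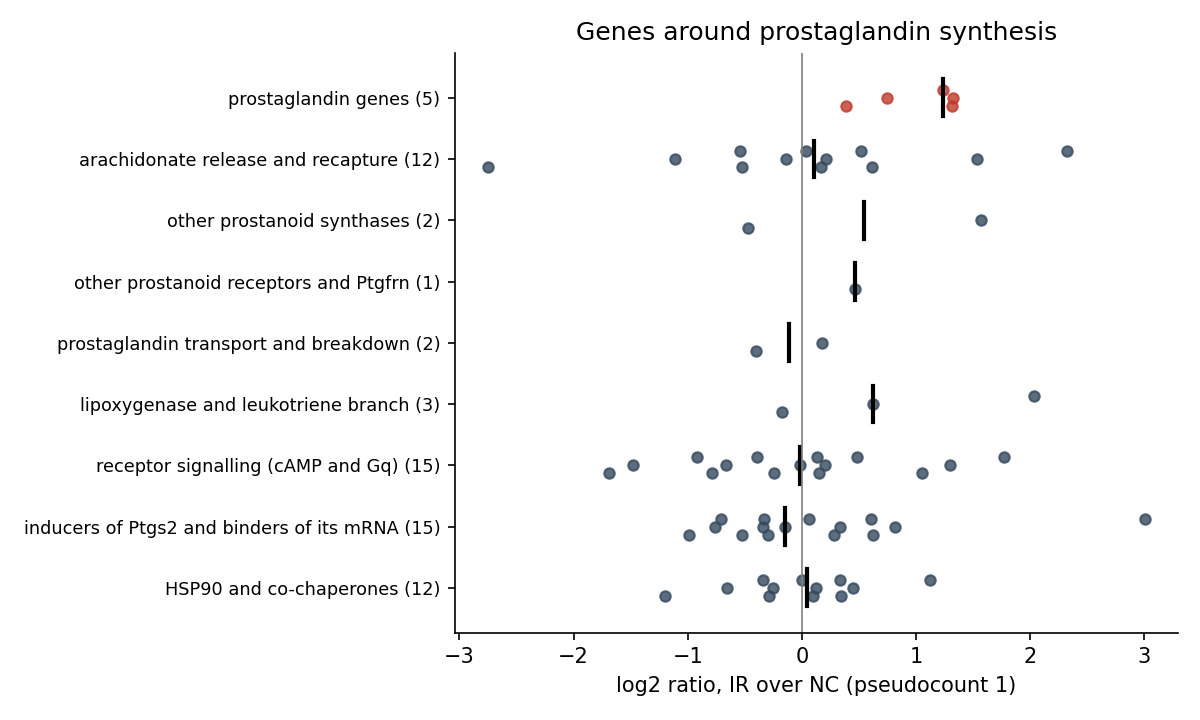
Log2 ratio of IR over NC for genes averaging 20 or more counts, with the 5 prostaglandin genes in red and the genes of 8 surrounding lists in dark blue. Each point is a gene, bars are medians, and the number of genes follows each list's name. The prostaglandin genes lie to the right of 0, and the 4 lists of 12 or more genes have medians from -0.15 to 0.10. The smaller lists, of 1 to 3 genes, have medians from -0.11 to 0.62.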

How the data were processed

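Ribosome footprints of 2 libraries of mouse lung fibroblasts were analysed from 1 table of whole-number counts of mapped reads per gene, deposited by the authors, per the file headers. Cells were treated with cycloheximide and footprints were selected by size and depleted of rRNA, per the labels' protocols. The submitters' processing notes list the build mm10 and the tools HTSeq 0.9.1, TopHat2, Bowtie, cutadapt 1.9.3, DESeq2 and edgeR, with no role or order. The strand setting and annotation release were not given in the sources used here. The 2 columns of log CPM values were not used.

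Groups came from the sample titles. TMM factors (edgeR 4.0.16, R 4.3.3) were 0.890 for IR and 1.12 for NC. Folds carry no pseudocount, and log2 ratios add 1 to scaled counts. Fold intervals come from the exact (Clopper-Pearson) interval of the IR share of a gene's counts, levels carry exact Poisson intervals, and ratios of genes within libraries carry conditional exact intervals. The procedure was tested only on simulated Poisson counts, which hold the error these intervals assume. That test cannot show how far PCR copies widen the true error. "Beyond counting error" means that the 95% interval excludes 1-fold. A count of 0 was read as at most 3 counts. Other scalings, floors, pseudocounts and intervals were tried.

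Members and lists were chosen with earlier results of these data known. Named besides the members were the 2 highest and 2 lowest genes of each list above a mean of 20 counts, the preset pathway genes that were in the table, and the 5 genes nearest Ptgs2 in ratio. Actr10, Cacna2d2, Stub1, Il1rap, Tnfrsf1a, Il1r1, Mapk14, Rela and the lipoxygenase genes were named after their values were seen. Promoters of 8 members were found in RefSeq (GRCm38.p6). Coding lengths were not used, so the planned level per length was not computed and levels are not compared between genes. Other software was matplotlib 3.10.9, pandas 2.3.3, scipy 1.17.1 and numpy 2.4.6 under Python 3.11.15.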

Additional observations from a re-analysis of the deposited data

How the results depend on the processing

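Of 90 repeats of the results under other settings, 83 kept the main value within its counting interval, its side of 1-fold or, for counts, within 1.5 times, and 7 did not, none of them with a change of direction. Total-count scaling gave a fold of 1.33 for Ptgs1, 1.98 for Ptgs2 and 1.98 for Ptges3, left 0 members at least 2-fold higher, and gave 8 higher and 28 lower genes in the pathway lists. This follows from the lower scaled ratio of every gene under that setting. Total counts without the 20 genes of highest mean count gave 2.235 for Ptges3. Median-of-ratios and upper-quartile scaling gave the same values, so their repeats are in effect 1 setting counted again. A fold could be counted as kept while its interval came to include 1, as for Ptger2 under total counts (0.834 to 36.7). The floor of 100 counts and the median without Ptges3 were chosen after seeing the data, as was the count over all 9 members by scaling, which was 5 higher and 1 lower both under total counts and without the 20 genes. The level per length was not run. No paired analysis was possible because each group has 1 library. Depth limits the receptors and Ptges2 most, each with at most 12 counts in a library.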

Other observations

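Of 332 genes with a mean of 162 to 251 counts, close to that of Ptgs2, the 5 whose log2 ratio was nearest to its 1.32 were Pax2 (324 counts in IR against 126 in NC, log2 ratio 1.34), Trappc11 (292 and 117, 1.29), Ap1g2 (261 and 99, 1.37), Fbxl20 (350 and 149, 1.21) and Nudt5 (291 and 124, 1.21). Across 2 libraries a pattern is a single ratio, and no more is read from this likeness. None of these 5 is in the prostaglandin lists used here.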
